A study of Homo sapiens with 8 samples.

Results

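The genes described here are 10 early response genes of human cells: the zinc finger transcription factors EGR1, EGR2 and EGR3, the orphan nuclear receptors NR4A1, NR4A2 and NR4A3, the immediate early response genes IER2, IER3 and IER5, and the transcription factor gene MYC. They were taken by symbol from a table of 25918 gene models, in which these 10 symbols had 11 models. NR4A1 alone had more than 1, and the model with the highest mean rank was used. Of the 10 genes, 9 passed a filter of percentile 60 or more in any treatment, as 12624 of all gene models did, and EGR2 did not.

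The study mapped N6-methyladenosine (m6A), a methyl mark on adenosines inside mRNA, by precipitating RNA fragments with an antibody (IP) and sequencing them beside an input library. Cultures labelled HepG2, a line derived from a liver carcinoma, had been given 1 of 4 treatments. They were hepatocyte growth factor (HGF) at 10 ng/ml overnight, interferon gamma (IFNg) at 200 ng/ml overnight, ultraviolet light (UV) at 0.04 J per square centimetre followed by 4 h in which to recover, or heat shock at 43 degrees for 30 min. The labels leave unclear whether the recovery also followed heat shock. Every treatment had 1 IP library and 1 input library, and untreated cells were not analysed here. Differences therefore have no replicate check, and no p-value is given.

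Immediate early genes are transcribed within minutes of a signal, without new protein synthesis, and their mRNAs are short-lived. Growth factors switch them on largely through the ERK kinases and serum response factor (SRF), which binds the CArG box with its ETS partners. UV and other stresses reach many of the same genes through the p38 and JNK kinases. m6A is often found near stop codons, and reader proteins of the YTH family can direct methylated mRNAs to decay.

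For expression the table gives each gene model's place among all models of that treatment, converted to a percentile (0 to 100). A percentile holds no amount and no read depth, so depth is unknown and no fold change is given. Whether the rank came from the IP, the input or both is not stated. Nor is it stated whether it was taken per transcript length, so ranks are compared between treatments of 1 gene and not as amounts between genes. Tied lowest ranks formed a floor at percentile 20.4 for HGF, 18.4 for IFNg, 45.5 for UV and 32.7 for heat shock, and values under 45.5 were raised to it for comparisons. Hepatocyte markers went against the label. Of 10 such genes, including ALB (albumin) and AFP (alpha-fetoprotein), 2 were at the floor after HGF, 2 after IFNg, 8 after UV and 5 after heat shock, and 1, TTR, passed the filter. ALB stood at 24.9 after HGF, 22.3 after IFNg, 45.5 after UV and 57.6 after heat shock. Of 9 leukocyte, fibroblast and endothelial markers, 8 lay between 18.5 and 56.1 in all treatments, and the collagen gene COL1A1 lay between 60.7 and 83.6. The origin of the cultures was not tested, and they are called by their label only.

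Each of the 8 genes with an m6A peak had one in the segment around the stop codon in at least 1 treatment, and the sequence there is shown for 5 of them. For IER2 the site in the 3′ UTR is shown, since it had a peak in all 4 treatments. The NR4A1 site shown had a peak after IFNg alone. GENCODE 29 transcripts could be aligned by exon lengths with the deposited models of EGR1, NR4A1, NR4A2, NR4A3, IER2, IER3 and MYC. On the transcript strand, the m6A-type motif GGAC was sought, and beside it the motif AGACT, the motif GAACT and the motif AAACT. Capitals mark the match nearest to the mean peak position in a window of 30 bases, written 5′ to 3′.
EGR1, stop codon site: accttttctcccaGGACaattgaaatttgc
NR4A1, stop codon site: acaagatcttcatGGACacgctgcccttct
NR4A2, stop codon site: agcaataattgacAAACTtttcctggacac
NR4A3, stop codon site: gggtgccctggtaGAACTgaggaagatctg
IER2, 3′ UTR site: tcgctctccttctGGACtgggagaagggag
IER3, stop codon site: ggtgcttgaggcgGGACcgaggcgcacaga
The adenosine before the C of the capitals lay 11 nt from the mean peak position in EGR1, 12 in NR4A1, 4 in NR4A2, 5 in NR4A3, 5 in IER2 and 16 in IER3. A motif lay within 50 nt of 15 of the 17 sites placed in these genes, both exceptions being coding sites of NR4A1. Of all 7407 placed sites in the data, 78.7% had one, and so did 52.2% of windows displaced by 400 nt on the same transcripts. Those shares needed the whole motif within 50 nt, while the count for these genes needed only its central adenosine there. The IER2 coding site at 673, with that adenosine exactly 50 nt away, would not meet the stricter rule. A motif is a match of letters and does not show which base was modified.

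EGR1 and NR4A1 ranked far higher after both ligands than after both stresses. EGR1, the best-known immediate early zinc finger factor (iduc003ldb.1, chromosome 5, 137829080 to 137832903, plus strand, as in the deposited table, for which no build is stated), had percentiles of 95.6 after HGF and 98.6 after IFNg, against 76.8 after UV and 52.6 after heat shock. The ligand and stress values did not overlap, and the gap between them was 18.9 points. NR4A1, also called Nur77, a nuclear receptor induced by many mitogens (iduc001rzt.1, chromosome 12, 50731458 to 50739554, plus strand), reached 87.5 after HGF and 96.9 after IFNg, against 60.9 after UV and 57.3 after heat shock. Its gap was 26.7 points. A gap of 10 points or more in that direction was found in 2 of the 9 genes past the filter and in 7.98% of all gene models past it, and the opposite gap in 0 of the 9 and in 5.75% of all. This comparison was chosen after the values had been seen. COL1A1, the fibroblast marker above, moved the same way, at 83.6 after HGF and 80.9 after IFNg, against 64.7 after UV and 60.7 after heat shock. The hepatocyte marker TTR moved the other way, at 43.0 after HGF and 42.0 after IFNg, against 76.1 after UV and 71.5 after heat shock. COL1A1 and TTR were each the only marker of their cell type past the filter, and other markers differed. The fibroblast marker COL1A2 did not exceed the highest floor in any treatment. Of the hepatocyte markers, HNF4A was highest after IFNg (56.9) and ALB after heat shock (57.6). The part of cell makeup in these differences was not tested, and fewer cells of a type cannot be told apart from less RNA per cell. Exposure time also differed: ligands were given overnight, heat shock lasted minutes, and UV was followed by hours of recovery. The kind of treatment cannot be told apart from exposure time here, and the part of time was not tested. The second, shorter NR4A1 model reached 75.8 after HGF and 94.1 after IFNg, against 60.8 after UV and 63.0 after heat shock.

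**Figure D1:**
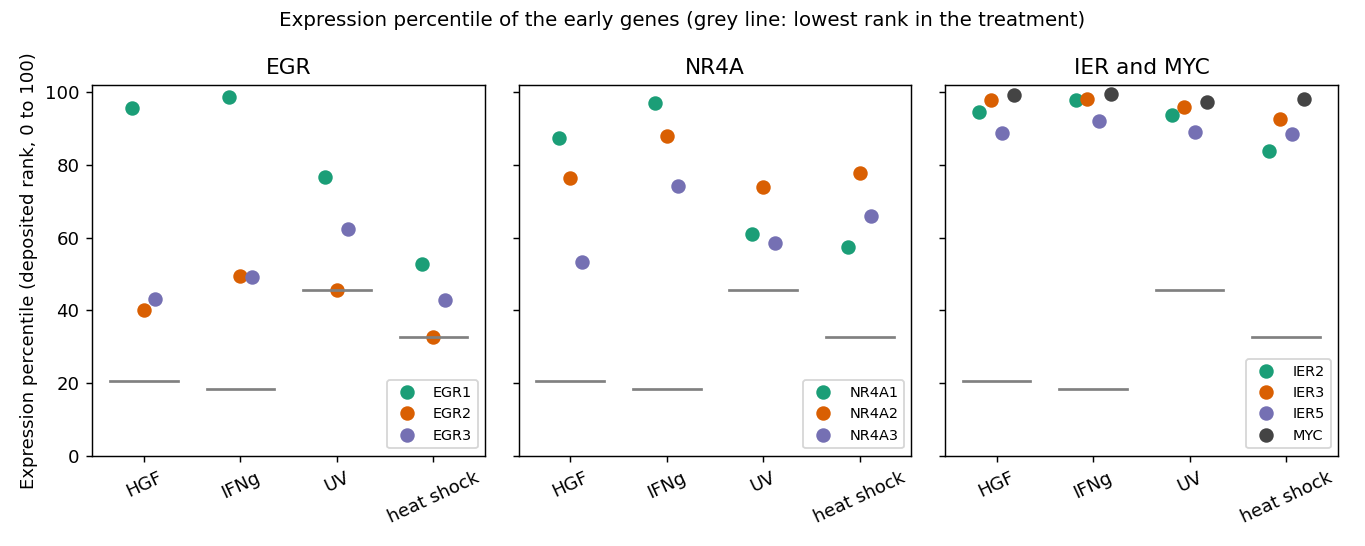
Deposited expression percentile (0 to 100) of each gene by treatment, with EGR, NR4A, and IER and MYC genes in separate panels; each point is the authors' single value for a treatment and grey lines mark the lowest rank in it. EGR1 runs between 52.6 and 98.6, while all MYC points lie between 97.3 and 99.5.

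Heat shock set EGR1 apart. At 52.6 it lay 24.1 points under the lowest of the other 3 treatments, which was UV at 76.8. It was the 1 gene of the 9 that stood 10 points or more below all others after heat shock, where 3.98% of all gene models past the filter did so. IER2, a nuclear regulator of transcription, came close at 83.9 after heat shock, against 94.6 after HGF, 98.0 after IFNg and 93.6 after UV, 9.69 points under the lowest of these.

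The other EGR genes ranked low. EGR3, an EGR1 relative with a shared DNA-binding domain (iduc003xcm.1, chromosome 8, 22601119 to 22606760, minus strand), stood at 62.2 after UV, against 43.2 after HGF, 49.2 after IFNg and 42.7 after heat shock. With floors raised it lay 13.0 points above all other treatments, and was the 1 gene of the 9 called higher after UV, against 1.93% of all gene models. EGR3 passed the filter through its UV value alone, so its place among the 9 rests on the same value as the call, and the count is a description only. EGR2, known for its role in myelination and hindbrain patterning (iduc001jmi.1, chromosome 10, 64241763 to 64246133, minus strand), had percentiles of 39.96 after HGF and 49.5 after IFNg, and was at the floor after UV and heat shock. A rank at the floor is the lowest recorded and is no evidence of absence. Neither gene had an m6A peak in any treatment.

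NR4A2 and NR4A3 followed a different order from NR4A1. NR4A2 (Nurr1), a receptor needed by midbrain dopamine neurons (iduc002tyz.2, chromosome 2, 156889190 to 156897533, minus strand), stood at 87.9 after IFNg, against 76.4 after HGF, 74.0 after UV and 77.9 after heat shock. It lay 10.1 points above all others, just past the limit, and was the 1 gene of the 9 called higher after IFNg, against 3.39% of all gene models. NR4A3 (NOR1), the third receptor of the family (iduc004bai.1, chromosome 9, 101628833 to 101668994, plus strand), stood at 74.2 after IFNg, against 53.4 after HGF, 58.4 after UV and 65.9 after heat shock. It was 8.27 points above the next treatment and so just short of the limit. After HGF, 0 of the 9 genes were called in either direction, against 1.57% higher and 1.39% lower of all gene models. No gene was called lower after UV (2.17% of all) or after IFNg (3.02%), or higher after heat shock (2.87%).

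IER3, IER5 and MYC differed little in percentile between treatments. IER3 (IEX-1), a modulator of cell survival under stress (iduc003nrn.1, chromosome 6, 30818955 to 30820306, minus strand), stood at 97.8 after HGF, 98.2 after IFNg, 95.95 after UV and 92.7 after heat shock. IER5, a partner of protein phosphatase 2A and the heat shock factor HSF1 (iduc001got.2, chromosome 1, 179324261 to 179326602, plus strand), stood at 88.7 after HGF, 91.98 after IFNg, 89.1 after UV and 88.6 after heat shock. MYC (iduc003ysi.1, chromosome 8, 128817498 to 128822855, plus strand), which heads a network of growth and ribosome genes, stood at 99.3 after HGF, 99.5 after IFNg, 97.3 after UV and 98.2 after heat shock. These percentiles span 5.52 points for IER3, 3.39 for IER5 and 2.18 for MYC. Percentiles compress differences among the highest genes: MYC was 189th from the top after HGF and 134th after IFNg, against 700th after UV and 456th after heat shock. IER2 (iduc002mwr.1, chromosome 19, 13122282 to 13126718, plus strand) was 1400th after HGF and 527th after IFNg, against 1653rd after UV and 4165th after heat shock. Each gene's shift was its percentile minus the median of its other 3 values. The median shift over the 10 genes was 0.488 points after HGF, 4.16 after IFNg, -1.90 after UV and -2.36 after heat shock. Over all gene models past the filter it was -0.243 after HGF, -0.181 after IFNg, 0.235 after UV and 0.449 after heat shock. As the genes were chosen with results known, this is a description.

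GC content moved with the ligand-to-stress difference across the table. The mean percentile after HGF and IFNg minus that after UV and heat shock correlated with transcript GC content at a Spearman rho of 0.716 over the 88.6% of gene models past the filter that had a GC value, which share libraries and are not independent replicates. EGR1 had a GC content of 55.4% and a difference of 32.4 points, where the median of the 280 gene models in its GC bin was 4.47. NR4A1 had 59.8% and 33.1 points, against a bin median of 8.52. After the bin medians of each treatment were subtracted, the difference was 24.8 points for EGR1 and 21.8 for NR4A1, and both genes still had ligand values at least 10 points above their stress values. For IER2, at 61.7% GC, the difference was 7.51 points and its bin median 11.2, and with the correction it turned to -6.01. For IER3 it turned from 3.68 to -4.85 and for MYC from 1.61 to -2.19. It rose from 6.22 to 10.0 for NR4A2, from 1.62 to 3.79 for NR4A3 and from 1.49 to 2.93 for IER5. For EGR2 it went from 1.99 to 1.72 and for EGR3 from -6.52 to -9.79. The part of GC content in these differences was not tested further.

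**Figure D2:**
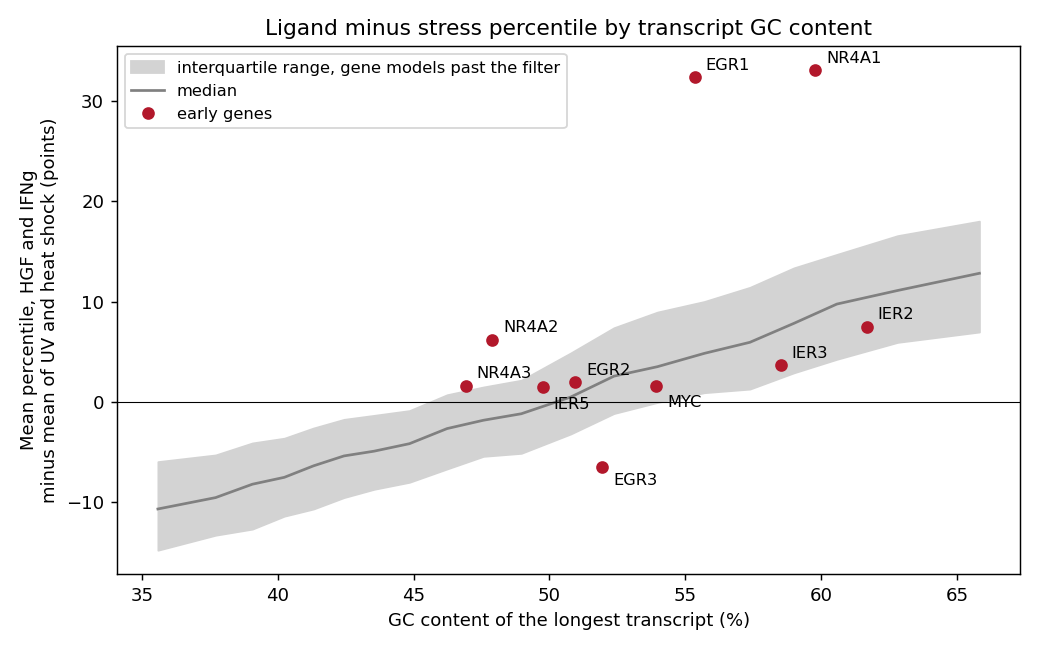
Mean percentile after HGF and IFNg minus the mean after UV and heat shock, in points, against GC content of the longest transcript, in percent; the grey band and line are the interquartile range and median of gene models past the filter in 20 GC bins, and red points are the 10 genes. EGR1 and NR4A1 lie at 32.4 and 33.1 points, far above the band, NR4A2 and NR4A3 lie less far above it, and EGR3 lies below it.

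The promoter of EGR1 is shown because SRF sites are a textbook route from ERK signalling to this gene. The sequence is RefSeq's on GRCh38.p14, chr5:138465229-138465528, plus strand, from 250 bases before to 50 after the transcript start, and capitals mark CArG boxes.
EGR1 promoter: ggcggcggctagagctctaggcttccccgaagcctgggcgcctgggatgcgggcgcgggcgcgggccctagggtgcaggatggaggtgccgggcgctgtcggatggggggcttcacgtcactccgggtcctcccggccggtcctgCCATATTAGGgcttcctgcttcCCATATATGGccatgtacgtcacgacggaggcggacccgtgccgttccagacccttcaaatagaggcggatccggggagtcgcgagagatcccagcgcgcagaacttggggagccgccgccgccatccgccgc
The 2 boxes in this window began 105 and 83 bases before the start, and boxes further upstream were not sought. The motif reads the same way on both strands. At least 1 box was found in 1.29% of 35116 promoter windows of this length and at least 2 in 0.0313%. The table held 9 windows for 6 of the genes (EGR1, EGR2, NR4A1, NR4A3, IER2 and IER5). Besides EGR1, 1 of the 3 EGR2 windows had a box, and the windows of NR4A1, NR4A3, IER2 and IER5 had none. A match is a description, not a site of binding in these cells.

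Of the 10 genes, m6A peaks marked 6 after HGF, 7 after IFNg, 8 after UV and 6 after heat shock, all of them among the 9 past the filter. Of all gene models past the filter, 42.2% had a peak after HGF, 27.8% after IFNg, 54.5% after UV and 43.9% after heat shock. Peaks were commoner above percentile 60 than below it, so gene models of similar rank are the closer background. At the 90th percentile or above, all 6 genes found there after IFNg had a peak, where 38.2% of gene models did, and so did all 4 after HGF (49.1%), all 3 after UV (67.9%) and both after heat shock (56.5%). The genes held 11 peaks after HGF, 13 after IFNg, 12 after UV and 9 after heat shock. Depth, which is unknown, can set how many peaks are found, and an unlisted peak is no evidence that a transcript lacked m6A.

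**Figure D3:**
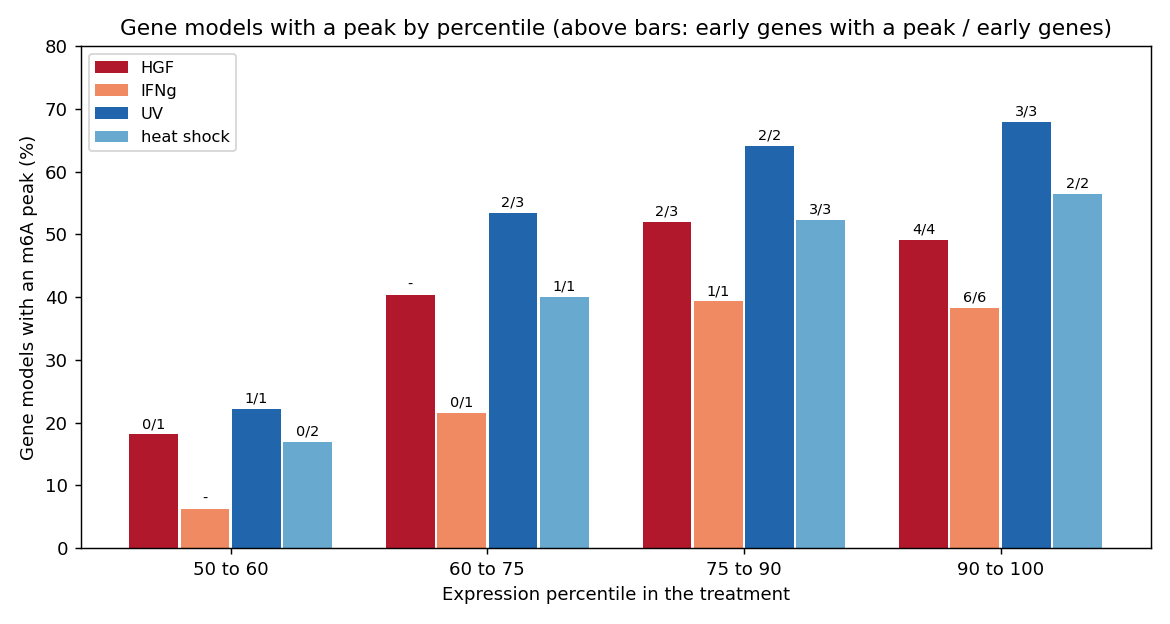
Percent of gene models with at least 1 m6A peak by expression percentile in each treatment; bars are all gene models in the band and the fractions above them are early genes with a peak over early genes in the band. After IFNg the top band holds 6 of the genes, each with a peak, where the bar stands at 38.2%.

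Peaks around the stop codon were the commonest kind. They made up 26 of the 45 peaks (57.8%), against 28.0% of 36551 peaks with a segment in all models. Coding sequence held 10 (22.2%, against 42.0%), the 3′ UTR 7 (15.6%, against 20.8%), and the transcript start and the 5′ UTR 1 each (2.22%, against 6.69% and 2.40%). In all these shares a site listed in several treatments is counted once for each, so the peaks are not independent. All 8 genes with a peak had at least 1 around the stop codon in some treatment, as 55.4% of 7635 coding models with a peak did. When peaks within 100 nt were joined, the 45 peaks formed 20 sites. Of these, 5 of the 20 had a peak in all 4 treatments (16.5% of 17764 sites in all models did), 2 in 3 treatments, 6 in 2 treatments and 7 in 1.

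**Figure D4:**
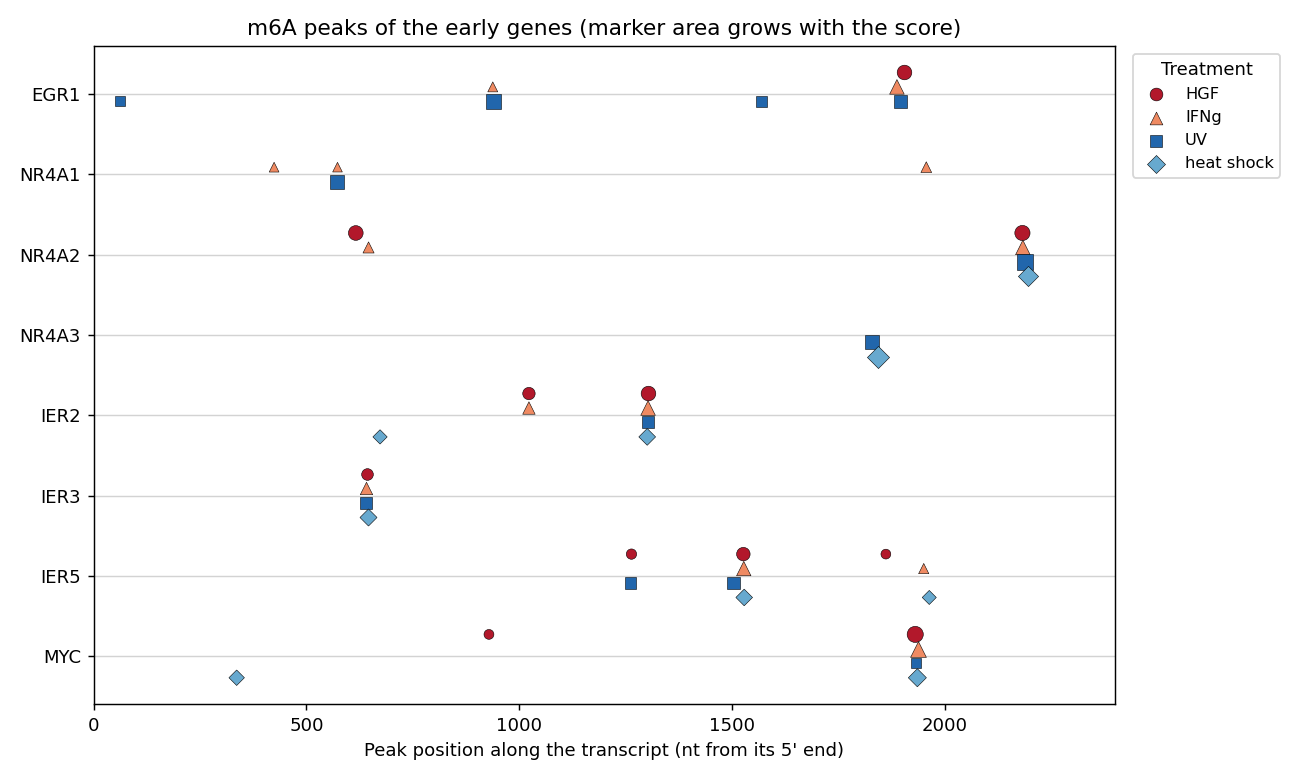
Positions of all 45 m6A peaks in the 8 genes that have any, in nt from the 5′ end of the deposited transcript; colour and shape give the treatment and marker area grows with the deposited score. Vertical stacks of 4 markers in NR4A2, IER2, IER3, IER5 and MYC are the 5 sites found in every treatment.

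EGR1 had a stop codon site in exon 2 in the 3 treatments where the gene ranked highest. Its peak lay at position 1904 with a score of 4.69 after HGF, at 1888 with 4.67 after IFNg and at 1897 with 3.70 after UV, and the mean position was -4 nt from the first base of the stop codon, where negative values are upstream. The score is the authors' own enrichment value per peak, with 2 as the lowest listed. A coding site followed at position 938 after IFNg (score 2.18) and 940 after UV (score 4.52). After UV a coding peak at 1570 (2.40) and a transcript start peak at 62 in exon 1 (2.28) were also listed. No peak was listed after heat shock, where EGR1 stood at 52.6 and where 16.9% of gene models between percentiles 50 and 60 had a peak.

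NR4A1 carried a coding site in exon 2 at position 573 after IFNg and UV. Its score was 2.05 after IFNg and 4.68 after UV, although the gene ranked 36.0 points higher after IFNg. IFNg added a coding peak at 424 (score 2.10) and a peak at 1957 in exon 7 (score 2.54), -2 nt from the stop codon. No peak was listed after HGF, where NR4A1 stood at 87.5 and where 52.0% of gene models between percentiles 75 and 90 had a peak, nor after heat shock. The shorter NR4A1 model had no peak in any treatment.

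NR4A2 had the steadiest site of the receptors. Its stop codon peak in exon 8 lay at 2183 after HGF, 2184 after IFNg, 2189 after UV and 2196 after heat shock, with scores of 5.08, 4.66, 5.08 and 4.46, and averaged -29 nt from the stop codon. A coding site in exon 3 was listed after HGF at 616 (score 4.74) and after IFNg at 646 (score 2.72), and after neither stress. NR4A3 went the other way. No peak was listed after HGF or after IFNg, although the gene ranked highest after IFNg. Its only site, in exon 7 at -117 nt from the stop codon, had a peak at 1830 after UV (score 4.69) and at 1843 after heat shock (score 5.37). Between percentiles 60 and 75, where NR4A3 stood after IFNg, 21.5% of gene models had a peak.

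The IER genes were marked in every treatment. IER2 had a 3′ UTR site in exon 2, 304 nt past the start of the stop codon, at 1304 after HGF (score 4.71), 1303 after IFNg (4.66), 1302 after UV (3.65) and 1301 after heat shock (3.09). A second site at 1023, 25 nt past the start of the stop codon, was listed after HGF (3.37) and IFNg (3.39), and a coding peak at 673 after heat shock (2.25). IER3 had 1 site, 141 nt past the start of the stop codon in exon 2, at 642 after HGF (2.99), 640 after IFNg (3.41), 641 after UV (3.49) and 645 after heat shock (3.19). IER5, a gene of a single exon in this table, had its main stop codon peak at 1527 after HGF (3.995), 1528 after IFNg (4.55), 1504 after UV (3.37) and 1529 after heat shock (3.05). Weaker IER5 peaks lay at 1264 after HGF (2.34) and 1262 after UV (2.70), and in the 3′ UTR at 1862 after HGF (2.11), 1951 after IFNg (2.30) and 1964 after heat shock (2.18).

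MYC had the most unequal scores of the shared sites. Its stop codon site in exon 3, 47 nt past the start of the stop codon, lay at 1931 after HGF with a score of 5.70 and at 1937 after IFNg with 5.46, against 1932 after UV with 2.10 and 1936 after heat shock with 3.59. The UV value is close to the lowest listed score, while MYC ranked at 97.3 or above in every treatment. The mean score after the ligands minus that after the stresses was 2.74, and 1 of the 2925 sites that were listed in every treatment had a larger difference. MYC also had a coding peak in exon 2 at 929 after HGF (2.14) and a 5′ UTR peak in exon 1 at 336 after heat shock (2.63).

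Scores at the shared sites of IER2, IER5 and MYC were higher after both ligands than after both stresses. Those 3 of 5 sites compare with 5.98% of the 2925 sites in all models, while 0 of 5 were lower after both ligands, as 45.7% of all were. The other 2, NR4A2 and IER3, overlapped, with differences of 0.10 and -0.14. The median score over the 2925 sites was 4.18 after HGF, 3.32 after IFNg, 5.25 after UV and 4.39 after heat shock, so these 3 sites ran against the table. When scores were ranked among the 2925 sites within each treatment, 4 of the 5 sites (all but IER3) ranked higher after both ligands, against 26.1% of all, and 0 of 5 ranked lower, against 23.1% of all. The MYC site stood at percentile 86.9 after HGF and 96.96 after IFNg, against 0.479 after UV and 26.6 after heat shock. In sites of transcripts with a GC content of 56.3% or more, 10.3% had higher scores after both ligands, and over 2824 sites the difference in score correlated with GC at a rho of 0.251. GC content was 61.7% for IER2, 49.8% for IER5 and 53.9% for MYC. This comparison was chosen after the values had been seen, and its scores come from 1 IP library a treatment. Ligands and stresses differed in exposure time here too, and the part of time was not tested.

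**Figure D5:**
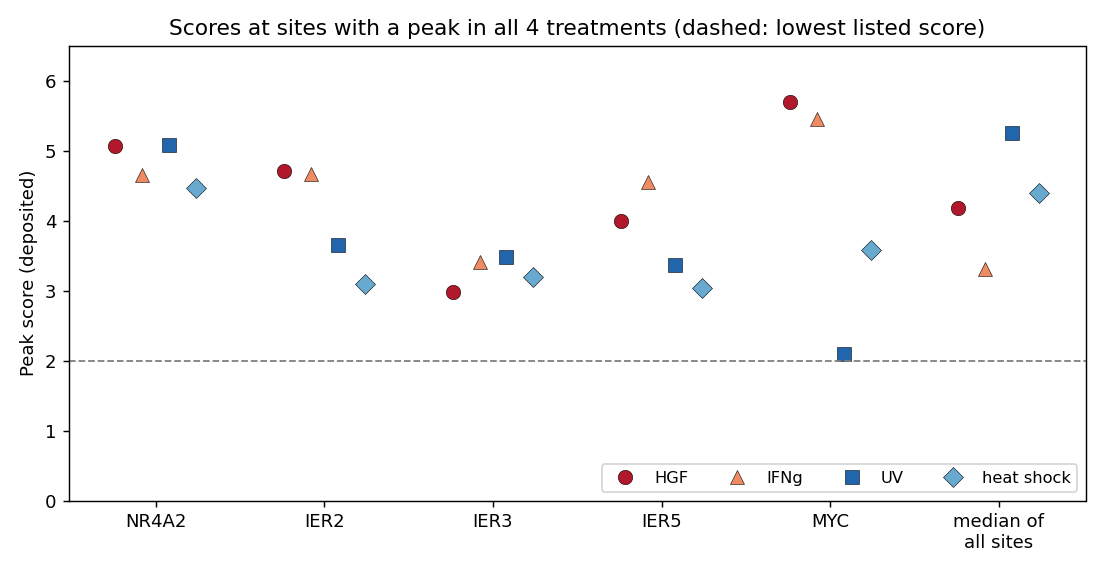
Deposited peak score at the 5 sites that every treatment shares, by treatment, and the median of all 2925 such sites in the table; each marker is 1 value and the dashed line is the lowest listed score, 2. IER2, IER5 and MYC have both ligand markers above both stress markers, whereas over all sites both ligand medians, 4.18 and 3.32, lie below both stress medians, 5.25 and 4.39.

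Other genes of the same pathways were read from lists fixed with earlier results of these data known. Of 17 other immediate early genes, 4 stood 10 points or more above all other treatments after IFNg and 0 below, where 3.39% and 3.02% of all gene models past the filter did. They were the AP-1 subunit FOSL1 (91.8 after IFNg, against 62.1 to 69.1 elsewhere), the stress factor ATF3 (90.2, against 47.3 to 65.7), and the Kruppel-like factors KLF6 (92.2, against 76.9 to 80.3) and KLF10 (90.7, against 74.3 to 78.8). After heat shock 3 stood that far below all others and 0 above, where 3.98% and 2.87% of all gene models did. These were FOS at 38.5 (under the highest floor), JUN at 63.8 (75.3 to 86.9 elsewhere) and PPP1R15A, a subunit of the phosphatase that reverses the integrated stress response, at 67.8 (79.1 to 94.5 elsewhere). ATF3 was the 1 called lower after HGF (1.39% of all gene models), and 0 were called in either direction after UV (1.93% higher and 2.17% lower of all). FOS was the 1 of 17 with both ligands at least 10 points above both stresses, a share near the 7.98% of all gene models. Its percentile was 66.7 after UV and 38.5 after heat shock, while HGF gave 88.5 and IFNg 91.3. FOSB, FOSL1, JUNB, DUSP1, KLF10, MCL1, BTG2 and PPP1R15A had the same order with a smaller gap. For MCL1 the gap was slight, at 96.44 after HGF against 96.40 after heat shock. The share of all gene models with this order at any gap was not counted, so the order is not read as particular to these genes.

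Regulators and partners of these genes were read in the same way, and the shares of all gene models given for each comparison hold for them too. Those were 7.98% for the ligand gap and between 1.39% and 3.98% for a single treatment, and no count below is read as particular to its list. Of 6 genes for SRF and its partners, 0 were called in any single treatment, and 2 had both ligands at least 10 points above both stresses. They were the ETS factor ELK1 (84.3 after HGF and 87.6 after IFNg, against 67.8 after UV and 67.4 after heat shock) and the actin-regulated coactivator MKL1 (90.6 after HGF and 90.9 after IFNg, against 79.2 after UV and 72.7 after heat shock). ELK3 had the same order with a smaller gap, while ELK4 and MKL2 had both ligands below both stresses, also by a smaller gap. SRF itself overlapped. NAB2, a co-repressor bound by EGR proteins, was the 1 called among 3 genes past the filter, at 82.4 after IFNg, against 60.3 after HGF, 65.5 after UV and 62.3 after heat shock. Of 2 NR4A partner genes past the filter, RXRB had both ligands at least 10 points above both stresses (86.9 after HGF and 87.5 after IFNg, against 70.8 after UV and 72.1 after heat shock). RXRA had the same order with a smaller gap. In the MYC network, 8 of 10 genes passed the filter, and MXD3, a MAX-binding antagonist, was called higher after HGF and lower after UV, with 85.0 after HGF, 71.7 after IFNg, 45.5 after UV and 59.3 after heat shock. MXD3 and MNT, another MAX-binding repressor (88.6 after HGF and 86.3 after IFNg, against 72.4 after UV and 74.7 after heat shock), had both ligands at least 10 points above both stresses. MXD4 had the same order with a smaller gap, MGA had the opposite order with a smaller gap, and the others past the filter overlapped. None of 9 MYC target genes past the filter was called in any of these comparisons, nor was any of 5 factors that act on AU-rich elements, the decay signals of many early mRNAs. Of those factors, ZFP36L1, ZFP36L2, HNRNPD and KHSRP had both ligands above both stresses by a smaller gap, and ZFP36 overlapped. Among the MYC targets CAD had that order, NCL, NPM1, ODC1, NOLC1 and DKC1 had the opposite order, and the rest overlapped. Of the 17 other immediate early genes, 11 had an m6A peak after HGF, 12 after IFNg, 15 after UV and 9 after heat shock. Of all gene models past the filter 42.2% had one after HGF, 27.8% after IFNg, 54.5% after UV and 43.9% after heat shock. Of the 9 MYC target genes, 4 had one after HGF, 1 after IFNg, 8 after UV and 5 after heat shock, beside the same shares of all gene models, which are not matched for rank.

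For the 3 genes whose percentile ranged over 20 points or more, the nearest patterns were sought over the 4 treatments, by the largest difference in any of them. EGR1 was nearest to MVP (4.69 points), COX8A (5.14) and DPP7 (6.73). NR4A1 was nearest to SGK493 (3.65), ULK1 (4.06) and FADS3 (4.16), and NR4A3 to DDX58 (2.05), C1orf74 (2.95) and LRRN2 (2.96). Transcript GC content was 61.2% for MVP, 58.6% for COX8A and 66.5% for DPP7, and 64.3% for SGK493, 64.2% for ULK1 and 56.1% for FADS3. It was 40.5% for DDX58, a viral RNA sensor induced by interferons, 44.6% for C1orf74 and 56.7% for LRRN2. Likeness over 4 values is a description.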

How the data were processed

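The members and the gene lists were chosen with earlier results of these data known. Per the file headers, the authors deposited for each treatment an expression quantile per gene model, which is a fraction from 0 to 1, and for each m6A peak a transcript position, exon, segment and enrichment score. The number of peaks and their positions are other deposited values. The sources used here state no aligner, peak caller, pooling, build or score formula. Quantiles were multiplied to percentiles and floors raised to the highest, 45.5. A gene was called when it lay 10 points beyond all other 3 treatments. Peaks within 100 nt were joined into sites. GC content came from the longest GENCODE 29 transcript of the symbol or its synonyms and covered 88.6% of gene models past the filter. A GC correction used 40 bins. Deposited positions were placed on GENCODE 29 transcripts of the same symbol with a genomic span within 100 bases and equal inner exons, which worked for 40.4% of 7952 gene models with a peak and needs no shared build. All 10 members are named; pathway genes are named where called. Alternatives are given in the closing section. Depth is unknown, as ranks hold no counts. Software was Python 3.11.15 with pandas 2.3.3, NumPy 2.4.6 and, for figures, matplotlib 3.10.9. The calling rule was tested on simulated data.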

Additional observations from a re-analysis of the deposited data

How the results depend on the processing

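The call of EGR1 as lower after heat shock, and the ligand gap of NR4A1, were kept under every alternative run. The gap of EGR1 was kept under all but the 20-point limit, where 1 gene remained in place of 2. Genes higher after IFNg numbered 1, and 3 on the log2 scale of rank from the top (EGR1, NR4A1 and IER2), 3 at 5 points (NR4A1 and NR4A3 joined NR4A2), 0 at 20 points and 2 with the lowest model per symbol (NR4A1 joined). EGR3 lost its call after UV on the log2 rank scale and at 20 points, which left 0 genes, and MYC joined the ligand gap on the log2 rank scale. Genes lower after heat shock numbered 2 on the log2 rank scale and at 5 points, where IER2 joined, and at 5 points 1 gene (NR4A3) was lower after HGF. With GC correction the shift of IER2 after heat shock turned from -10.7 to 2.34 points. Ranks as deposited and no filter changed no count of called genes. Counting peaks with a score of 3 or more left 7 after HGF, 7 after IFNg, 8 after UV and 6 after heat shock. With 4 or more, 5 were left after HGF, 5 after IFNg, 4 after UV and 2 after heat shock. Genes with such a peak then numbered 4 after HGF, 5 after IFNg, 4 after UV and 2 after heat shock. Sites in all 4 treatments stayed at 5 when peaks were joined within 50 or 200 nt. The causes of these changes were not tested. No paired analysis was possible because each group held 1 library and no test was run. With 1 library a group and unknown depth, error between cultures cannot be stated.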
